A study of Homo sapiens with 54 samples.

Results

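The genes described here are MMP1, MMP2, MMP14, MMP15, TIMP1, TIMP2, TIMP3, FAP and POSTN, which encode 4 matrix metalloproteinases, 3 tissue inhibitors of metalloproteinases, the membrane peptidase fibroblast activation protein and the matrix protein periostin. They were chosen by name with earlier results of these data known, so counts among them are descriptions and not tests. The probe table maps each to 1 probe set, so they are 9 of the 17875 genes with a single symbol among 18989 probe sets. All 9 passed the level filter of both fits (at least 1 group mean above 7.86 log2, the median of all values).

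The cells were WM266-4, an established human melanoma line with the BRAF V600D mutation, a change that keeps the RAF-MEK-ERK kinase cascade switched on. Total RNA was hybridised to Affymetrix expression arrays, 54 in all, in 18 groups of 3. In the inhibitor arm, cells received DMSO (the vehicle), LGX818 (0.05 uM), which inhibits BRAF, trametinib (0.003 uM) or MEK162 (0.3 uM), which inhibit MEK1/2, or an unnamed inhibitor of ERK1/2 (0.2 uM), for 3 h or 24 h. In the shRNA arm, 4 kinds of cells were collected at day 3 and day 7: the parental line, and derivatives with a control shRNA (non-targeting, NT) or with shRNAs labelled shERK1 and shERK2, induced with doxycycline (100 ng/ml). For the parental cells the labels conflict: the treatment field names doxycycline and the description calls them untreated. The growth protocol names WM266-6 for the shRNA-carrying cells where every other label names WM266-4, and whether these cells are clones or pools is not given. No uninduced group of these derivatives is among the samples. An effect of an shRNA and a difference between the derivatives therefore cannot be told apart. In this arm the words rose, fell, raised, lowered, changed and effect name differences from the stated control. The labels do not say that the 3 arrays of a group were separate cultures. Each p measures the spread between arrays within groups, pooled over all groups of the arm. The 4 inhibitors of a time share their DMSO arrays, and the shRNA comparisons of a day share their NT or parental arrays. Because the inhibitor doses differ, their values stand side by side without a test between them, and differences between the arms were not tested.

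Matrix metalloproteinases are zinc-dependent enzymes that cut collagens and other matrix proteins. They are made as inactive precursors, are activated by other proteases and are blocked by the TIMPs. MMP1 is an interstitial collagenase, MMP2 is a gelatinase that cuts denatured collagen and the type IV collagen of basement membranes, and MMP14 and MMP15 are anchored in the cell membrane. MMP14 activates the MMP2 precursor at the cell surface with TIMP2 as a bridge. FAP cuts after proline and is best known from activated fibroblasts of tumour stroma, and periostin is a secreted matricellular protein that binds integrins and collagen. The promoters of MMP1 and TIMP1 are textbook targets of AP-1 (JUN and FOS proteins) and of ETS factors, both of which lie downstream of ERK.

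Markers fitted the cell label. All 6 measured melanocyte markers lay above the median of all values (7.86 log2) in every group, with a list mean of 11.96 to 12.91 log2. Of 9 fibroblast markers, 7 lay below it in every group, from DCN (4.24 to 4.45) and PDGFRA (3.50 to 4.90) to COL3A1 (4.71 to 7.41) and LUM (4.90 to 7.60), while COL1A2 (12.45 to 13.44) and ACTA2 (10.62 to 12.12) lay above it in every group. At 24 h, 5, 5, 5 and 4 of the 6 melanocyte markers rose with LGX818, trametinib, MEK162 and the ERK1/2 inhibitor. Falls numbered 0, 1, 0 and 1, where 31.6% to 35.4% of all tested genes rose and 31.5% to 33.8% fell. With shERK2 at day 7 against NT, 2 of the 6 rose and 4 fell (3 without array a), where 32.8% and 31.5% of all tested genes rose and fell. None of the 7 leukocyte and 4 endothelial markers lay above the median of all values throughout. In bulk RNA, fewer cells of a type and less RNA per cell cannot be told apart. MAPK3, which encodes ERK1, ran from 7.98 to 8.49 log2 in the arrays labelled shERK1 and from 9.30 to 9.87 in the others. The gene targeted by shERK2 is not analysed here. The shERK2 day 7 arrays stood apart: their correlation within the group was 0.9905 to 0.9940 against 0.9947 to 0.9983 elsewhere, and on the GAPDH control probes the log2 excess of 3′ over 5′ signal, which rises with RNA degradation, was 1.53 in array a and 0.272 to 1.530 over the group. Array c of the ERK1/2 inhibitor at 3 h had 0.707 on that measure, and the arrays outside these groups had 0.139 to 0.530. Differences resting on shERK2 at day 7 are therefore given with and without array a. The shERK2 day 7 arrays also enter the pooled spread behind every other shRNA comparison.

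The promoter table (RefSeq, GRCh38.p14) held 5 of the 9 genes. MMP1, MMP2, TIMP2 and FAP are not in it. Each window, the 250 bases before the start, was searched on both strands for 4 sets of letters. The AP-1 letters TGAGTCA lie in 4.2% of the 35116 windows of the table, and their variant TGAGTAA in 2.21%. The ETS letters of PEA3, written AGGAAG, lie in 28.7%, and TATAAA, the core of a TATA box, in 10.7%. The windows of MMP14, MMP15 and TIMP3 held 0 of the 4. POSTN and TIMP1 are shown because they hold the AP-1 letters (POSTN) or their variant (TIMP1) and because they had the widest and the narrowest range of levels among the 9 genes. Capitals mark the matches, and the lines read 5′ to 3′ along the gene's strand, for POSTN at chr13:37598769-37599018 (minus strand) and for TIMP1 at chrX:47582186-47582435 (plus strand).
POSTN: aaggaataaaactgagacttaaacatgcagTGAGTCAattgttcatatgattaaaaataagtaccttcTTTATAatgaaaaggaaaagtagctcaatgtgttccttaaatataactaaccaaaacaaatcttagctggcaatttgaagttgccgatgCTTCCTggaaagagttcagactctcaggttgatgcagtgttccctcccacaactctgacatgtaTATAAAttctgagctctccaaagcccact
TIMP1: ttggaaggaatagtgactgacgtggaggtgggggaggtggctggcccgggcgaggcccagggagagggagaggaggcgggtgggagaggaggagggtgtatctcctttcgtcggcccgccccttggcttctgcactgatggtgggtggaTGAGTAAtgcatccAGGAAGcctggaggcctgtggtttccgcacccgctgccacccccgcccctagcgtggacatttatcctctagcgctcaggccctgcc
In POSTN the AP-1 letters begin 220 bases before the start, and the PEA3 letters, on the other strand, 93 bases before it. The AP-1 variant of TIMP1 begins 101 bases before the start and its PEA3 match 87 bases before it. A match of letters is a description and not a binding site.

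Over the 18 group means, the 9 genes differed in how far they moved. POSTN spanned 4.07 log2, MMP2 2.98, MMP1 and FAP 2.14 each, MMP15 1.21 and MMP14 1.09. The inhibitors spanned less: TIMP3 0.90, TIMP2 0.51 and TIMP1 0.22. TIMP1 and TIMP2 sat between 13.22 and 13.82 on all 54 arrays, where the highest value of any probe set was 14.8. Whether their signal was saturated was not tested.

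At 3 h few of the 9 genes passed the test, as was so for genes at large. LGX818, trametinib and the ERK1/2 inhibitor changed 0 of them, and MEK162 changed 1, while 11.7%, 11.3%, 10.4% and 13.2% of the 9703 genes tested were called with LGX818, trametinib, the ERK1/2 inhibitor and MEK162. MMP1 fell by 0.21 with MEK162 (SE 0.058, 1.16-fold, adjusted p = 0.013), from 13.21, 13.15 and 13.23 in DMSO to 13.00, 12.99 and 12.97, and the arrays did not overlap. That call was lost without DMSO 3 h array a (-0.20, adjusted p = 0.0538) or MEK162 3 h array c (-0.20, adjusted p = 0.0523). With the ERK1/2 inhibitor, 0 of 9 were called with or without its array c. In the same arrays, SPRY4, a feedback inhibitor of the cascade, fell, with log2 differences of -6.36, -6.08, -6.36 and -4.84 for LGX818, trametinib, MEK162 and the ERK1/2 inhibitor, and 9 of 9 tested genes of the MAPK activity list fell with each.

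**Figure D1:**
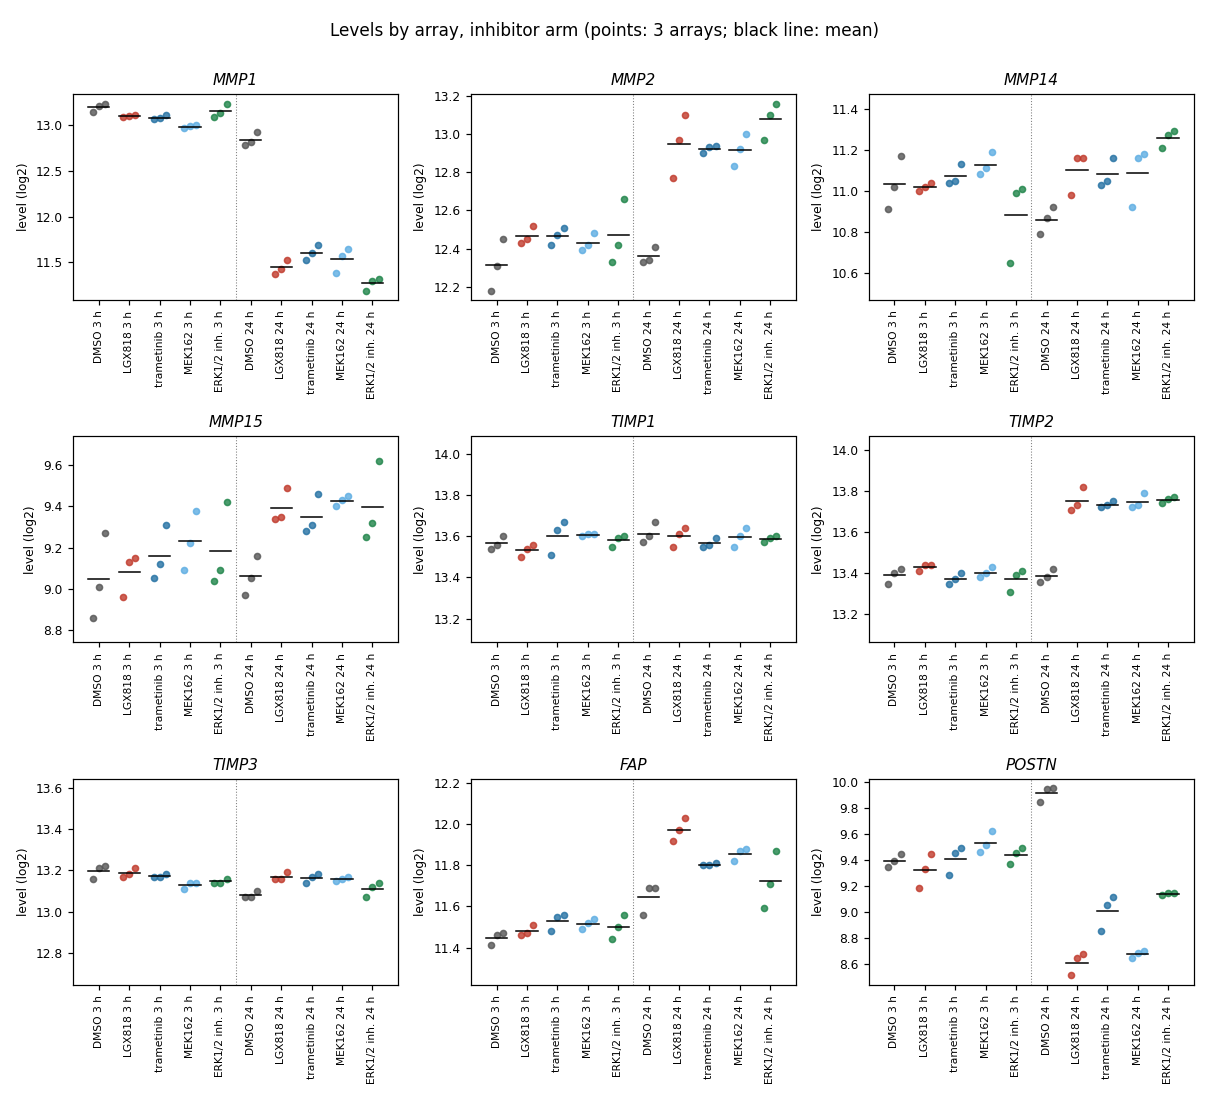
Levels (log2) of the 9 genes in the inhibitor arm, by group, with 3 arrays per group as points and the group mean as a black line. The vertical scales differ between panels. At 24 h, MMP1 and POSTN lie lower with each inhibitor than in DMSO, MMP2 and TIMP2 lie higher, and TIMP1 stays between 13.50 and 13.67 in all 30 arrays.

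After 24 h most of the 9 genes had changed, in both directions. With LGX818, trametinib and MEK162, 6 of the 9 genes rose and 2 fell, and with the ERK1/2 inhibitor 4 rose and 2 fell. Many other genes moved as well: 35.4%, 31.6%, 33.4% and 33.6% of tested genes rose and 33.8%, 33%, 33.8% and 31.5% fell with the inhibitors in that order. MMP2, MMP14, MMP15 and TIMP2 rose and MMP1 and POSTN fell with all 4, where 26.3% and 27.1% of all genes did so. The median size of change over the 9 was 0.33, 0.29, 0.36 and 0.37 log2, against 0.34, 0.29, 0.32 and 0.30 over all genes. Values below keep the order LGX818, trametinib, MEK162, ERK1/2 inhibitor.

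MMP1, the collagenase, had the largest fall of the 9. In DMSO at 24 h its level was 12.93, 12.78 and 12.82 log2. It was 11.37, 11.53 and 11.43 with LGX818 and 11.60, 11.69 and 11.52 with trametinib. It was 11.57, 11.38 and 11.65 with MEK162 and 11.32, 11.30 and 11.19 with the ERK1/2 inhibitor. All 12 treated arrays lay more than 1 log2 below the lowest DMSO array. The differences were -1.40, -1.25, -1.31 and -1.57 (SE 0.058 each), or 2.63-, 2.37-, 2.48- and 2.98-fold, with adjusted p of 9.78e-18, 1.80e-16, 4.53e-17 and 1.34e-18. In size of change MMP1 ranked 731, 732, 781 and 466 of 9703 genes. The level also fell in DMSO itself between 3 h and 24 h (-0.35, SE 0.058, adjusted p = 3.60e-05).

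MMP2, the gelatinase, moved the opposite way. Its DMSO arrays read 12.33, 12.34 and 12.41 at 24 h. With LGX818 they read 13.10, 12.97 and 12.77, with trametinib 12.94, 12.93 and 12.90, with MEK162 13.00, 12.92 and 12.83, and with the ERK1/2 inhibitor 13.16, 12.97 and 13.10. The treated and DMSO arrays did not overlap. The rises were 0.59, 0.56, 0.56 and 0.72 (SE 0.076), or 1.5-, 1.48-, 1.47- and 1.65-fold, with adjusted p from 4.58e-09 to 3.26e-07.

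The membrane-anchored proteases rose less. MMP14 was 10.87, 10.79 and 10.92 in DMSO and 11.27, 11.29 and 11.21 with the ERK1/2 inhibitor, a rise of 0.40 (SE 0.082, adjusted p = 0.000136). With the other inhibitors it rose by 0.24, 0.22 and 0.23 (adjusted p = 0.0110, 0.0213 and 0.0165), and array c of MEK162 (10.92) reached the DMSO range. Each of those 3 calls was lost without DMSO 24 h array b (0.21, 0.18 and 0.19, adjusted p = 0.0520, 0.0862 and 0.0709), the one with trametinib also without trametinib 24 h array a (0.18, adjusted p = 0.0917), and the one with MEK162 also without its array a (0.19, adjusted p = 0.0711) or b (0.18, adjusted p = 0.0876). MMP15 was 9.05, 8.97 and 9.16 in DMSO and 9.25 to 9.62 in the 12 treated arrays. Its rises were 0.33, 0.29, 0.36 and 0.33 (SE 0.11), with adjusted p = 0.00948, 0.0248, 0.0048 and 0.00959. The trametinib call on MMP15 was lost without DMSO array a (0.28, adjusted p = 0.0569), DMSO array b (0.24, adjusted p = 0.0929) or trametinib array a (0.23, adjusted p = 0.107), and the ERK1/2 inhibitor call without that inhibitor's array a (0.22, adjusted p = 0.0959).

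Among the inhibitors, TIMP2 was the mover. It read 13.36, 13.38 and 13.42 in DMSO at 24 h and 13.71 to 13.82 in all 12 treated arrays, with no overlap. Its rises were 0.37, 0.35, 0.36 and 0.37 (SE 0.032), about 1.27- to 1.29-fold, with adjusted p from 9.55e-11 to 3.06e-10. TIMP3, which stays bound to the matrix, rose by 0.09, 0.08 and 0.08 with LGX818, trametinib and MEK162 (SE 0.027, adjusted p = 0.00456, 0.00822 and 0.00993), 1.06-fold each, and its difference with the ERK1/2 inhibitor was 0.03 (95% interval -0.03 to 0.08, adjusted p = 0.375). Its DMSO level fell by 0.12 between 3 h and 24 h (adjusted p = 0.00132). TIMP1, an inhibitor of secreted metalloproteinases, passed the test with none of the 4: the differences lay between -0.046 and -0.015 and their 95% intervals within -0.12 and 0.06.

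FAP read 11.69, 11.56 and 11.69 in DMSO at 24 h. With LGX818 it read 11.92, 11.97 and 12.03, with trametinib 11.80, 11.80 and 11.81, with MEK162 11.88, 11.87 and 11.82, and with the ERK1/2 inhibitor 11.87, 11.71 and 11.59. It rose by 0.32, 0.15 and 0.20 with LGX818, trametinib and MEK162 (SE 0.053, adjusted p = 6.80e-06, 0.0139 and 0.00153). With the ERK1/2 inhibitor the arrays overlapped with DMSO and the difference was 0.075 (95% interval -0.03 to 0.18, adjusted p = 0.223). It passed without that group's array c (0.14, adjusted p = 0.0264), and the trametinib call was lost without DMSO array b (0.11, adjusted p = 0.100). The mean of the fibroblast markers also lay higher in the treated groups, 7.14 to 7.27 log2 against 6.73 in DMSO. Of that list COL1A2 and ACTA2 alone reached the test, and both rose with all 4 inhibitors. Among the 7 markers below the filter, COL3A1 had a mean of 5.01 in DMSO and 6.97 to 7.41 in the treated groups, and COL1A1, PDGFRB and THY1 were also higher in all 4, by smaller amounts. LUM (6.66 in DMSO, 6.48 to 6.97 treated) and DCN (4.38, then 4.31 to 4.42) lay on both sides of DMSO, and PDGFRA was lower in all 4 (3.84, then 3.62 to 3.76). The part of other cells in the FAP change was not tested.

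POSTN fell with every inhibitor at 24 h. DMSO read 9.94, 9.95 and 9.84. LGX818 gave 8.67, 8.64 and 8.51 and MEK162 gave 8.70, 8.68 and 8.64. Trametinib gave 9.11, 9.05 and 8.85 and the ERK1/2 inhibitor 9.13, 9.14 and 9.14. All 12 treated arrays lay below every DMSO array, and those of LGX818 and MEK162 were the lowest. The differences were -1.30, -0.91, -1.24 and -0.77 (SE 0.074), or 2.47-, 1.88-, 2.36- and 1.71-fold, with adjusted p = 1.16e-14, 2.97e-11, 3.72e-14 and 7.27e-10. In DMSO the level rose by 0.52 from 3 h to 24 h (SE 0.074, adjusted p = 4.99e-06), so the treated cells at 24 h are set against a vehicle level that had itself risen. At 3 h none of the 4 passed the test: the arrays of LGX818, trametinib and the ERK1/2 inhibitor overlapped with DMSO (9.34 to 9.44), and those of MEK162 (9.51, 9.62 and 9.46) lay above it, a difference of 0.14 (adjusted p = 0.234).

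Between the DMSO groups of 24 h and 3 h, 4 of the 9 genes changed (MMP1 and TIMP3 lower, FAP and POSTN higher), where 31.4% of tested genes did. The order of the 10 groups of this arm followed from these values. For MMP1, the 3 h groups DMSO, ERK1/2 inhibitor, LGX818 and trametinib each overlapped with the next in that order. LGX818 (13.09 to 13.11) and trametinib (13.07 to 13.11) lay wholly below DMSO at 3 h (13.15 to 13.23). Neither passed the test (adjusted p = 0.354 and 0.244). MEK162 at 3 h and DMSO at 24 h each stood clear of their neighbours. Among the treated groups of 24 h, that of the ERK1/2 inhibitor lay wholly below its neighbour while the other 3 overlapped. For POSTN, DMSO at 24 h stood above all other groups, the neighbouring 3 h groups overlapped, the ERK1/2 inhibitor and trametinib at 24 h followed clear of each other, and LGX818 and MEK162 at 24 h overlapped at the bottom. For TIMP1 no group stood clear of its neighbour.

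The effect at 24 h was tested against the effect at 3 h. It differed for 6 of 9 genes with LGX818, where 52% of tested genes differed. The counts were 5 of 9 with trametinib, 5 with MEK162 and 5 with the ERK1/2 inhibitor, where 49.7%, 50.9% and 48.7% of all genes did. MMP1, MMP2, TIMP2 and POSTN were called with each inhibitor. The change of effect was -1.30, -1.13, -1.10 and -1.53 for MMP1 (SE 0.081) and -1.23, -0.93, -1.38 and -0.83 for POSTN (SE 0.10). TIMP3 was called with LGX818, trametinib and MEK162 by 0.10, 0.11 and 0.15, small values of which the one with LGX818 was lost without DMSO 24 h array b or c, DMSO 3 h array a or c, LGX818 24 h array a or LGX818 3 h array b or c (0.09 to 0.10, adjusted p from 0.0528 to 0.0797), and the one with trametinib without DMSO 3 h array a (0.10, adjusted p = 0.0540). The MMP14 and MMP15 values with LGX818 (0.25 and 0.30, adjusted p = 0.0705 and 0.111) passed without DMSO 3 h array b (0.31 and 0.39, adjusted p = 0.0332 and 0.0430), and for MMP14 also without LGX818 24 h array c (0.31, adjusted p = 0.0339). With the ERK1/2 inhibitor, TIMP3 (0.08, adjusted p = 0.0850) passed without DMSO 3 h array b (0.10, adjusted p = 0.0482) or that inhibitor's 24 h array c (0.10, adjusted p = 0.0420), and with trametinib TIMP1 (-0.08, adjusted p = 0.18) passed without trametinib 3 h array b (-0.13, adjusted p = 0.0230).

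The other genes of the protease system were set beside these. At 24 h, 31.6% to 35.4% of all tested genes rose and 31.5% to 33.8% fell with the inhibitors. Of 18 further metalloproteinases with a probe set, 4 passed the level filter, MMP8, MMP16, MMP17 and MMP19, and at 24 h 2 of the 4 rose and 1 fell with each inhibitor. MMP16, a membrane-anchored enzyme, fell, with differences of -1.98, -1.49, -1.67 and -1.72. MMP19 was higher by 1.61, 1.41, 1.57 and 1.14, and MMP17, held in the membrane by a lipid anchor, by 0.56, 0.73, 0.51 and 0.95. RECK, a membrane-bound inhibitor of metalloproteinases, rose by 0.54, 0.51, 0.59 and 0.72, and TIMP4, the other inhibitor tested, was higher by 1.94, 1.66, 1.90 and 1.65. MMP19 and TIMP4 lay below the level filter in DMSO at both times (TIMP4 6.35 and 6.45) and were tested only through the treated groups in which they were high, so their calls follow in part from the filter. Of 9 tested ADAM and ADAMTS proteases, 5, 4, 5 and 5 fell and 1, 1, 1 and 2 rose. ADAMTS1, which cuts proteoglycans, fell, with differences of -2.37, -1.63, -2.29 and -1.57 at 24 h and of -1.53, -1.58, -1.58 and -1.43 already at 3 h. ADAMTS3, which trims procollagen, fell, with differences of -2.10, -1.72, -1.89 and -1.53 at 3 h and of -1.07, -0.96, -1.14 and -0.68 at 24 h.

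Of 4 tested activators of the protease precursors, PLAUR, the urokinase receptor, fell, with differences of -0.71, -0.70, -0.63 and -0.71. PLAT, tissue plasminogen activator, rose by 0.38, 0.25 and 0.53 with trametinib, MEK162 and the ERK1/2 inhibitor, and differed by 0.12 with LGX818 (adjusted p = 0.312). Of 7 tested dipeptidyl and prolyl peptidases, listed beside FAP, 4, 3, 4 and 5 rose and 1 fell with each inhibitor. The one that fell was PREP (-0.54, -0.47, -0.41 and -0.42), and DPP8 rose by 0.69, 0.50, 0.62 and 0.47. Of 8 tested matricellular genes, the class of periostin, 4 rose with each inhibitor and 4, 4, 3 and 2 fell. TGFBI, a relative of periostin with the same kind of repeat domains, rose by 1.74, 1.99, 1.82 and 1.78, opposite to POSTN, and THBS2 fell, with differences of -0.72, -0.44, -0.71 and -0.64. No list was tested as a set. In these 4 comparisons 31.6% to 35.4% of all tested genes rose and 31.5% to 33.8% fell. The median over all tested genes lay between 0.00 and 0.02.

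The genes of the AP-1 and ETS list, whose letters were searched in the promoters, changed in both directions. At 24 h, 4, 4, 3 and 4 of 11 tested rose and 6, 7, 6 and 7 fell. Of all tested genes, 31.6% to 35.4% rose and 31.5% to 33.8% fell. JUN rose by 4.02, 4.02, 4.08 and 4.08, while the ETS factors ETV4 and ETV5 fell, with differences of -3.91, -3.85, -3.78 and -3.96 for ETV4 and -4.45, -3.58, -4.72 and -3.53 for ETV5. FOSL1, an AP-1 partner, fell, with differences of -1.61, -1.33, -1.60 and -1.17 at 3 h. Whether these factors act on the 9 genes was not tested.

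In the shRNA arm MMP2, MMP14 and TIMP3 differed from NT in opposite directions with shERK1 and shERK2, and at day 7 so did MMP1. FAP and POSTN were lower than NT with both at day 7. With shERK1, 5 of the 9 genes were lower than NT at day 3 and 6 at day 7, and 0 were higher. Of the 9779 tested genes, 2.69% and 9.16% were lower and 1.97% and 8.74% higher. Its median difference over the 9 was -0.21 at day 3 and -0.46 at day 7, against 0.001 and -0.009 over all genes. As the 9 genes were chosen with earlier results known, these counts and medians do not test the set. Centring each array on its median left 2 of the 5 calls of day 3, MMP2 and POSTN, with MMP14, TIMP3 and FAP at -0.20, -0.21 and -0.26 (adjusted p = 0.111, 0.0548 and 0.0733). With shERK2, 6 rose and 1 fell at day 3, where 17.5% and 15.5% of genes rose and fell, and 6 rose and 2 fell at day 7, where 32.8% and 31.5% did (9 of 9 were called without array a, TIMP1 being the further fall). Array medians were 0.10 log2 higher with shERK2 than with NT at day 7, and centring the arrays kept every one of those 8 calls and made TIMP1 a further one (-0.19, adjusted p = 0.000345).

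**Figure D2:**
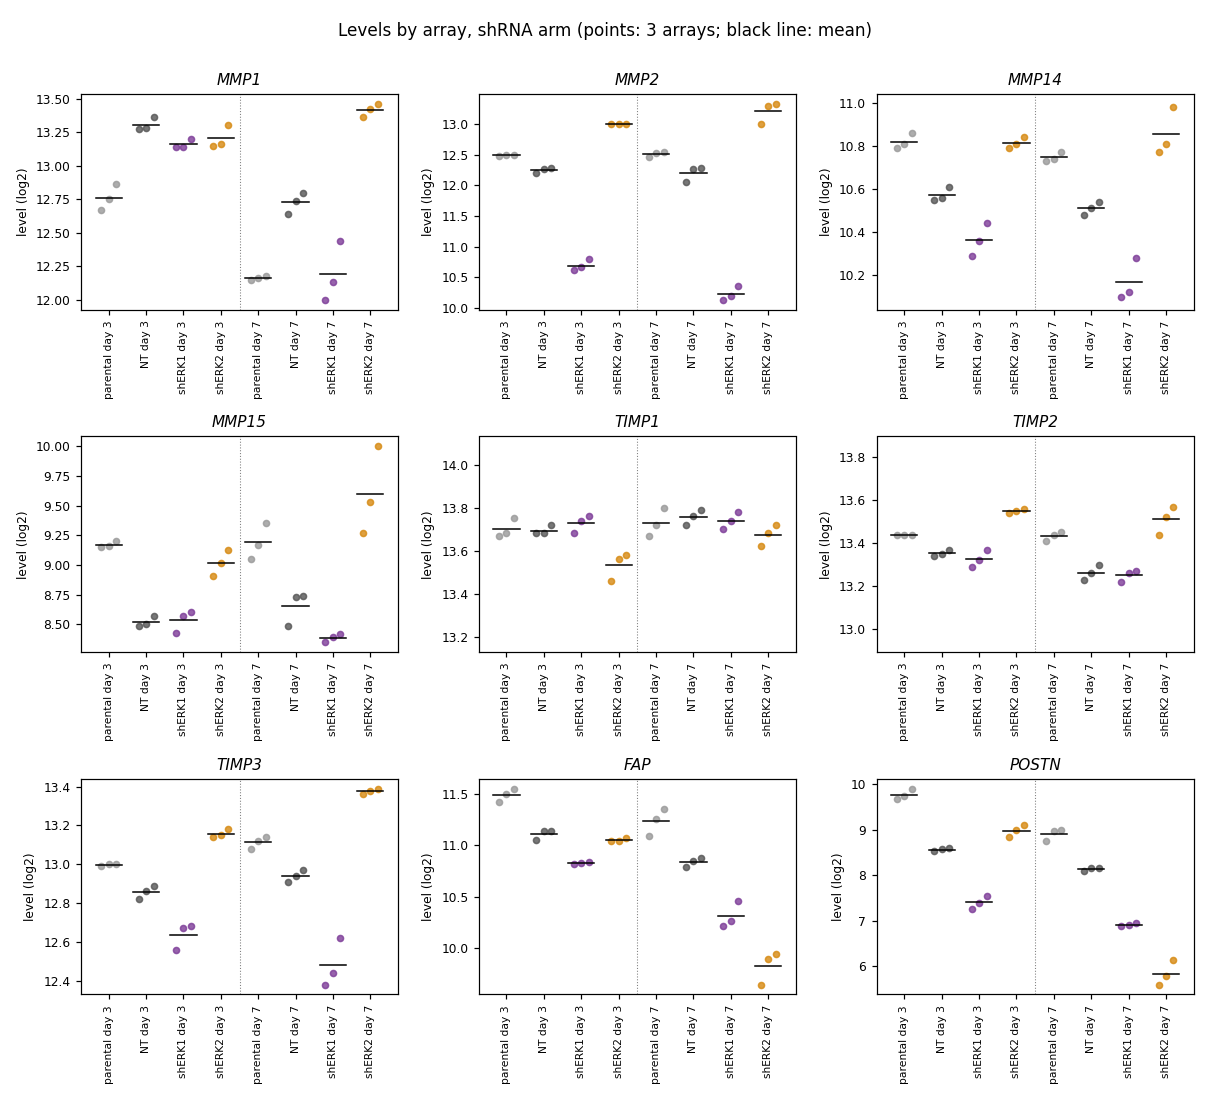
Levels (log2) of the 9 genes in the shRNA arm, by group, with 3 arrays per group as points and the group mean as a black line; vertical scales differ between panels. MMP2 lies lowest with shERK1 on both days and highest with shERK2, and POSTN and FAP lie lowest with shERK2 at day 7.

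MMP2 carried the widest gap between the shRNAs. At day 3 it read 12.21, 12.29 and 12.27 with NT, 10.79, 10.67 and 10.61 with shERK1 and 13.00, 13.01 and 13.01 with shERK2. At day 7 the values were 12.27, 12.05 and 12.28, then 10.36, 10.19 and 10.13, then 13.30, 13.00 and 13.33. The 3 groups of each day did not overlap. With shERK1 the level fell by 1.57 at day 3 and fell by 1.97 at day 7 (SE 0.076, 2.96- and 3.93-fold, adjusted p = 2.12e-11 and 2.07e-13), which ranked 2 of 9779 genes in size on each day. With shERK2 it rose by 0.75 and 1.01 (1.68- and 2.01-fold, adjusted p = 9.03e-08 and 2.35e-10), and by 0.96 at day 7 without array a. The direct difference of shERK2 from shERK1 was 2.32 at day 3 and 2.98 at day 7, or 4.98- and 7.89-fold, and 2.94 at day 7 without array a.

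MMP1 behaved differently from MMP2. At day 3 its arrays read 13.28, 13.36 and 13.27 with NT, 13.14, 13.20 and 13.14 with shERK1 and 13.15, 13.30 and 13.16 with shERK2, and neither shRNA passed the test (-0.14 and -0.10, adjusted p = 0.374 and 0.337). By day 7 NT had dropped to 12.64, 12.74 and 12.80 and shERK1 to 12.44, 12.13 and 12.00, while shERK2 read 13.46, 13.36 and 13.42, above every other array of that day. Against NT of day 7, shERK1 fell by 0.54 (SE 0.076, 1.45-fold, adjusted p = 3.19e-05) and shERK2 rose by 0.69 (1.61-fold, adjusted p = 9.08e-08; 0.66 without array a). Parental cells also read lower at day 7 (12.15, 12.16 and 12.18) than at day 3 (12.67, 12.86 and 12.75), a difference of -0.60 (adjusted p = 6.83e-05), and NT fell by 0.58 (adjusted p = 0.000202). The falls of the control cells between days lay, in size, between the differences of the shRNAs from NT at day 7.

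For the membrane-anchored proteases, MMP14 read 10.55 to 10.61 with NT at day 3 and 10.48 to 10.54 at day 7, against 10.29 to 10.44 and 10.10 to 10.28 with shERK1 and 10.79 to 10.84 and 10.77 to 10.98 with shERK2. It fell with shERK1 (-0.21 and -0.34, SE 0.059, adjusted p = 0.0398 and 0.000276) and rose with shERK2 by 0.24 and 0.34 (adjusted p = 0.0032 and 3.86e-05; 0.38 at day 7 without array a). The day 3 call with shERK1 was lost without any of the 3 NT arrays a, b and c (-0.22, -0.22 and -0.19, adjusted p = 0.102, 0.0861 and 0.175) and without shERK1 array b (-0.18, adjusted p = 0.18) or c (-0.21, adjusted p = 0.0920). MMP15 rose with shERK2 by 0.50 at day 3 and 0.95 at day 7 (SE 0.12, adjusted p = 0.00318 and 8.26e-07). Its shERK2 arrays of day 7 were uneven, at 9.27 and 9.53 in arrays b and c and 10 in array a, against 8.74, 8.49 and 8.73 with NT, and without array a the rise was 0.75 (adjusted p = 3.86e-07). With shERK1, MMP15 differed from NT by 0.01 and -0.27 (adjusted p = 0.989 and 0.144).

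Of the inhibitors, TIMP3 followed the direction of MMP2. It read 12.86, 12.89 and 12.82 with NT, 12.67, 12.56 and 12.68 with shERK1 and 13.15, 13.18 and 13.14 with shERK2 at day 3. At day 7 it read 12.91 to 12.97, 12.38 to 12.62 and 13.36 to 13.39, again without overlap. It fell, with differences of -0.22 and -0.46 for shERK1 (SE 0.045, adjusted p = 0.0048 and 2.79e-07) and rose by 0.30 and 0.44 with shERK2 (adjusted p = 2.00e-05 and 2.80e-08; 0.45 at day 7 without array a). TIMP2 rose with shERK2 by 0.20 and 0.24 (SE 0.031, adjusted p = 3.79e-05 and 9.16e-07; 0.28 at day 7 without array a) and differed by -0.025 and -0.017 with shERK1 (adjusted p = 0.8 and 0.764). With shERK2, TIMP1 fell by 0.16 at day 3 (SE 0.039, 1.12-fold, adjusted p = 0.0028), with 13.46 to 13.58 against 13.68 to 13.72. At day 7 its difference of -0.08 (adjusted p = 0.0687) passed without array a (-0.11, adjusted p = 0.0277).

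FAP read 11.05, 11.14 and 11.14 with NT at day 3, 10.83, 10.82 and 10.84 with shERK1 and 11.07, 11.04 and 11.04 with shERK2. At day 7 it read 10.88, 10.85 and 10.79, then 10.46, 10.27 and 10.22, then 9.65, 9.90 and 9.95, in 3 groups without overlap. With shERK1 it fell by 0.28 at day 3 (SE 0.075, adjusted p = 0.0330) and fell by 0.52 at day 7 (adjusted p = 3.64e-05). The day 3 call was lost when any array of either group was left out (-0.26 to -0.31, adjusted p from 0.0584 to 0.131). With shERK2 the difference was -0.06 at day 3 (adjusted p = 0.591), and at day 7 FAP fell by 1.01, or 2.01-fold (adjusted p = 1.89e-10; -0.92 without array a). COL1A2 and ACTA2, the fibroblast markers above the filter, rose with shERK2 at day 7 by 0.84 and 0.79 (0.84 and 0.68 without array a), opposite to FAP.

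POSTN had the deepest fall of the 9 genes. At day 3 it read 8.57, 8.60 and 8.52 with NT, 7.55, 7.26 and 7.40 with shERK1 and 9.10, 8.84 and 8.99 with shERK2. At day 7 it read 8.16, 8.16 and 8.09 with NT, 6.90, 6.94 and 6.89 with shERK1, and 6.13, 5.60 and 5.79 with shERK2. The order thus turned over: shERK2 was the highest of these 3 groups at day 3 and the lowest at day 7, without overlap on either day. With shERK1 POSTN fell, with differences of -1.16 and -1.23 (SE 0.11, 2.24- and 2.34-fold, adjusted p = 7.05e-07 and 1.08e-07), which ranked 12 and 59 of 9779 genes in size. With shERK2 it rose by 0.41 at day 3 (1.33-fold, adjusted p = 0.00561) and fell by 2.30 at day 7 (4.91-fold, adjusted p = 1.04e-13). Without array a the day 7 difference was -2.44 (adjusted p = 2.24e-15). The values of shERK1 on both days and of shERK2 at day 7 lie below the median of all values, and the arrays carry no detection calls, so the size of those falls may be understated.

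**Figure D3:**
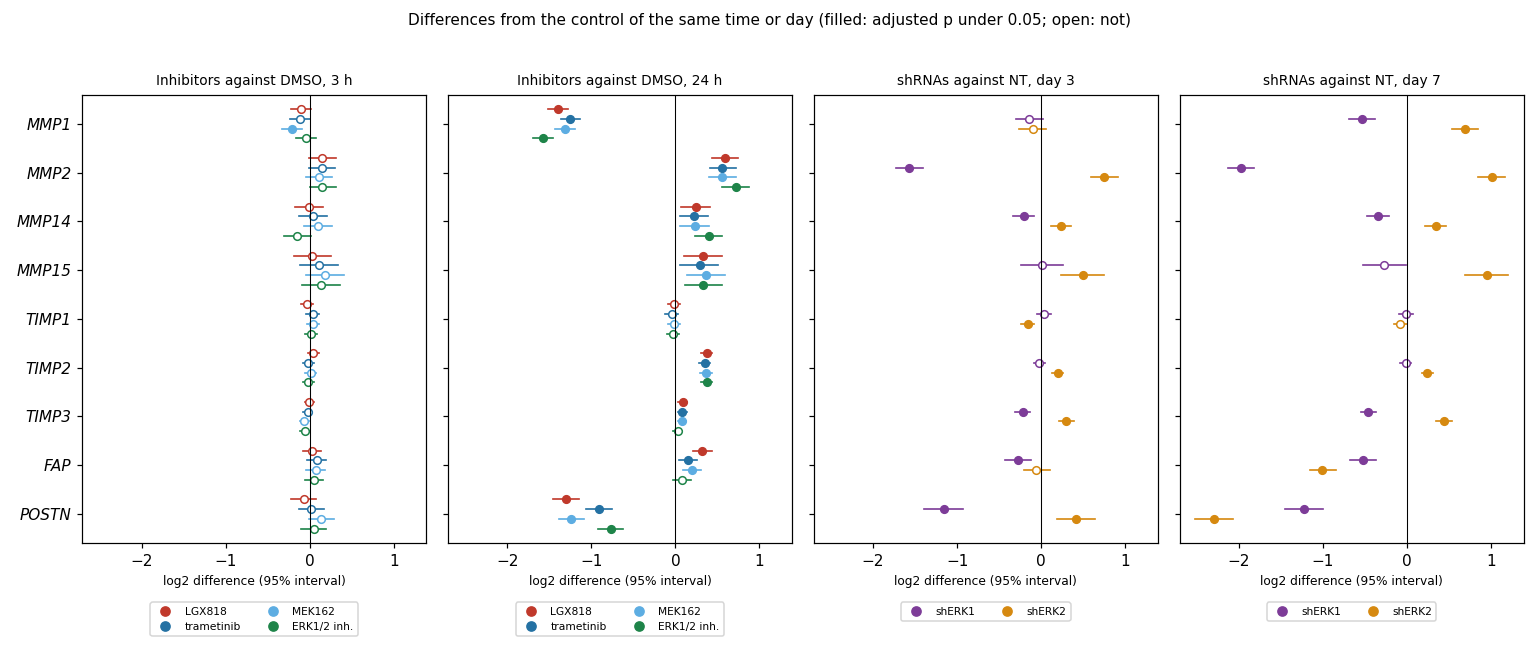
Differences (log2) of the 9 genes from the control of the same time or day with 95% intervals, for 4 inhibitors against DMSO and 2 shRNAs against NT; filled points have an adjusted p under 0.05. At 24 h the points of MMP1 and POSTN lie between -1.57 and -0.77, and against NT those of MMP2 lie at -1.57 and -1.97 with shERK1 and at 0.75 and 1.01 with shERK2.

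Whether an shRNA's effect changed between days was tested directly. With shERK1, 0 of 9 genes had a changed effect in limma, where 0.522% of all genes did; at an unadjusted p under 0.05, 4 of the 9 did (MMP1, MMP2, TIMP3 and FAP), against 11.7% of all genes. Without shERK1 day 7 array a, 3 passed: MMP1 by -0.52, MMP2 by -0.47 and TIMP3 by -0.31 (adjusted p = 0.00283, 0.0275 and 0.00338), against -0.39, -0.41 and -0.24 with it. With shERK2, 3 of 9 did, where 23.9% of all genes did: MMP1 by 0.79 (SE 0.11, adjusted p = 1.42e-05), FAP by -0.95 (adjusted p = 1.12e-06) and POSTN by -2.71 (SE 0.15, adjusted p = 5.19e-11). The POSTN value ranked 6 of 9779 genes in size. Without shERK2 array a of day 7 these values were 0.76, -0.86 and -2.85. Without array b of that group, MMP2 and MMP15 passed as well (0.36 and 0.62, adjusted p = 0.00433 and 0.0031), against 0.26 and 0.45 with it (adjusted p = 0.0871 and 0.0621).

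The shRNAs were also set against each other and against parental cells. Between shERK2 and shERK1, 8 of 9 genes differed at day 3 and 8 at day 7, where 35.5% and 68.7% of genes did. TIMP1 was lower with shERK2 at day 3 (-0.20), and at day 7 TIMP1 was the gene that missed the test (-0.07, adjusted p = 0.128; -0.09, adjusted p = 0.0531 without array a). FAP and POSTN were higher with shERK2 at day 3 (0.22 and 1.57) and lower at day 7 (-0.48 and -1.07, or -0.39 and -1.21 without array a). The FAP call at day 3 was lost when any of the 6 arrays of its groups was left out (0.21 to 0.23, adjusted p from 0.0526 to 0.0798).

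NT cells were not like parental cells in these genes. Of the 9, 1 rose and 6 fell at day 3, and 1 rose and 7 fell at day 7, where 11.9% and 16.4% of genes changed. MMP1 was higher in NT by 0.54 and 0.56 (adjusted p = 2.37e-05 and 1.15e-05). Lower in NT were POSTN (-1.21 and -0.77), MMP15 (-0.65 and -0.54), FAP (-0.38 and -0.39) and MMP14 (-0.25 and -0.24). The parental POSTN arrays read 9.67, 9.74 and 9.90 at day 3 and 9.0, 8.75 and 8.97 at day 7, above all NT arrays of the same day. MMP2 and TIMP3 were lower in NT at day 3 (-0.24 and -0.14), calls that did not survive leaving out any 1 array of these groups (adjusted p from 0.0568 to 0.165), and at day 7 (-0.31 and -0.17).

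Against parental cells, shERK1 changed 8 and 7 of the 9 genes at days 3 and 7, where 21.2% and 39.6% of genes changed, and shERK2 changed 7 and 7, where 27% and 60% did. With shERK1, MMP2 fell (-1.80 and -2.29), as did POSTN (-2.37 and -2.00). MMP1, lower than NT at day 7, differed from parental cells by 0.02 (adjusted p = 0.833). With shERK2, MMP2 rose by 0.51 and 0.69, MMP1 by 0.44 and 1.25, and FAP (-0.44 and -1.40) and POSTN (-0.80 and -3.07) fell. At day 7 these values without array a were 0.65, 1.22, -1.31 and -3.21. The rise of POSTN against NT at day 3 was therefore a fall against parental cells. MMP14 with shERK2 did not differ by the test from parental cells (-0.005 and 0.10, adjusted p = 0.962 and 0.138), though at day 7 it passed without array a (0.14, adjusted p = 0.0449), and MMP15, higher by 0.41 at day 7, lost its call without array a (0.21, adjusted p = 0.0558). At day 3 MMP15 with shERK2, higher than NT, differed from parental cells by -0.15 (adjusted p = 0.404). TIMP2 was higher with shERK2 than in parental cells at day 7 by 0.08 (adjusted p = 0.0383; 0.11 without array a), and centring the arrays turned this to -0.03 (adjusted p = 0.660). That call was also lost without parental day 7 array a or c or shERK2 day 7 array b or c (0.05 to 0.08, adjusted p from 0.0528 to 0.210), and that of TIMP2 with shERK1 at day 3 (-0.12) without shERK1 array b (-0.10, adjusted p = 0.0544).

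Between days in the control cells, MMP1, FAP and POSTN changed in NT and in parental cells, 3 of 9 in each, where 5.5% and 6.94% of genes changed. The differences in NT and parental cells were -0.43 and -0.86 for POSTN and -0.27 and -0.26 for FAP. The FAP calls did not hold without NT day 3 arrays a, b or c or NT day 7 arrays a, b or c (-0.24 to -0.30, adjusted p from 0.0632 to 0.149), nor without parental day 3 array a, b or c or parental day 7 array b or c (-0.19 to -0.29, adjusted p from 0.0530 to 0.200). The POSTN call in NT was lost without NT day 3 array a, b or c or NT day 7 array a or c (adjusted p from 0.0651 to 0.0970).

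Across the 8 groups of this arm, MMP2 ran from shERK2 (13.21 at day 7 and 13.01 at day 3, overlapping) through parental (12.52 and 12.49, overlapping) and NT (12.26 and 12.20, overlapping) to shERK1 (10.69 and 10.23), with each of these 4 pairs clear of the next. POSTN ran from parental day 3 (9.77) to shERK2 day 7 (5.84), and only shERK2 day 3 (8.97) and parental day 7 (8.91) overlapped. MMP1 was highest with shERK2 at day 7 (13.41), overlapping NT day 3 (13.30), and lowest with shERK1 and in parental cells at day 7 (12.19 and 12.17), which overlapped.

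Related genes were set beside these in the shRNA arm, against NT. Of all tested genes, 1.97% and 8.74% rose and 2.69% and 9.16% fell with shERK1 at days 3 and 7. With shERK2, 17.5% and 32.8% rose and 15.5% and 31.5% fell. Without array a, 3068 of 9779 genes rose and 3291 fell with shERK2 at day 7. Of the 4 further metalloproteinases tested, shERK1 changed 0 on either day. With shERK2, 2 were higher and 1 fell on each day, MMP8 at day 3 (-0.27) and MMP16 at day 7. MMP17 rose by 0.55 and 1.33 (1.01 at day 7 without array a). MMP19 was higher by 0.28 and 0.80 (0.88 without array a); it too passed the level filter only through shERK2 at day 7 (7.98, against 7.18 with NT). The MMP16 value (-0.49) was a call lost without array a (-0.23, adjusted p = 0.0744). TIMP4 did not pass the level filter in this arm, and RECK passed the test with neither shRNA. PLAUR fell with shERK1 (-0.35 and -0.62) and, with shERK2, differed by -0.06 at day 3 (adjusted p = 0.671) and rose by 0.54 at day 7 (0.50 without array a). PLAT fell with shERK1 at day 7 (-0.65) and rose with shERK2 by 0.65 and 0.72 (0.70 without array a). Of 10 tested ADAM and ADAMTS proteases, shERK1 raised 1 and 0 and lowered 0 and 1. With shERK2, 4 and 5 rose and 2 and 1 fell, with 7 and 1 at day 7 without array a. ADAMTS3 fell with shERK2 (-0.94 and -2.70, or -2.51 without array a), and ADAM12, a fusion and shedding protease, rose by 0.67 and 1.38 (1.49 without array a). ADAMTS1, which fell with the inhibitors, rose with shERK2 at day 7 by 0.65 (0.73 without array a), and ADAMTS6 by 1.09 (0.95 without array a). Of the 8 tested matricellular genes, shERK1 raised 0 and 1 and lowered 1 and 2, and shERK2 raised 3 and 5 and lowered 1 and 1, with 5 and 1 at day 7 also without array a. TGFBI rose by 1.98 and 2.52 (2.30 without array a) and THBS1 by 0.90 and 1.81 (2.10 without array a). Of 9 tested MAPK activity genes, shERK1 lowered 0 and 2, and shERK2 raised 1 and 1 and lowered 3 and 5, with the same counts at day 7 also without array a. The gene of that list that rose with shERK2 at day 7 was EPHA2, by 0.82 (0.89 without array a). SPRY4 fell with shERK2 (-0.53 and -0.72, or -0.56 without array a) and differed by -0.03 and 0.004 with shERK1. JUN rose with both, by 0.39 and 0.86 with shERK1 and by 1.48 and 2.19 with shERK2 (2.17 without array a).

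Over the 18 group means the 9 genes fell into loose company. As a description, across groups that share controls and normalisation, the Pearson correlation was 0.91 for MMP2 and TIMP3, 0.87 for MMP15 and TIMP3, 0.85 for MMP14 and MMP15, 0.84 for FAP and POSTN, 0.83 for MMP2 and MMP15 and for MMP14 and TIMP3, and 0.81 for MMP2 and MMP14. It was negative for MMP14 and TIMP1 (-0.77), MMP1 and TIMP2 (-0.72) and TIMP1 and TIMP3 (-0.64). These correlations pool both arms, and a difference in level between the arms enters them. Group means of MMP14 were 10.86 to 11.26 in the inhibitor arm and 10.17 to 10.85 in the shRNA arm. Those of TIMP1 were 13.53 to 13.61 and 13.53 to 13.75. Correlations within each arm were not computed. Among 9447 other genes, the 3 most like each wide-ranging member by that correlation were CIT (0.919), RCCD1 (0.912) and TNFAIP8L1 (0.907) for MMP1. PLOD3 (0.966), which modifies collagen lysines, DAZAP2 (0.943) and CLSTN1 (0.939) were nearest to MMP2. For MMP14 they were MFSD12 (0.961), ST3GAL4 (0.950) and PMEPA1 (0.949), and for MMP15 AEBP1 (0.970), the basement membrane collagen COL4A1 (0.965) and DKK3 (0.961). ENDOD1 (0.951), EMX2OS (0.945) and VAT1 (0.938) were nearest to FAP, and CYGB (0.928), CXCL14 (0.904) and COMMD10 (0.859) to POSTN.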

How the data were processed

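Total RNA of WM266-4 cells was measured on 54 arrays in 18 groups of 3. The values are log2 expression, deposited by the authors after RMA in affy, per the submitters' processing notes; neither the chip definition nor the build is given in the sources used here. RMA sets the probe intensities of all arrays to 1 distribution before probe sets are summarised, and it compresses low levels. The array medians of the deposited values ran from 7.78 to 8.04 log2. The table held 18989 probe sets, of which 17875 map to 1 gene symbol, 62 are controls and 1052 have no entry in that mapping.

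Each arm was fitted in limma 3.58.1 (R 4.3.3) with 1 mean per group and an eBayes intensity trend. Genes were tested if their mean in any group of the arm was above 7.86, the median over the table. "Adjusted p" is Benjamini-Hochberg over all genes tested in a comparison, and a gene was called below 0.05. The number of arrays limits the precision.

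The 9 genes and the lists were chosen with earlier results of these data known. Named from each list were up to 4 called genes with the largest changes whose arrays do not overlap, and, for likeness, the 3 genes most correlated with each of the 9 that spans at least 1 log2. The lists were further metalloproteinases, other metalloproteinase inhibitors, ADAM and ADAMTS proteases, activators of precursors, dipeptidyl and prolyl peptidases, and matricellular genes. Further lists held AP-1 and ETS factors, MAPK activity genes, and markers of melanocytes, fibroblasts, leukocytes and endothelium. Alternatives changed the filter, the centring, the trend, the groups fitted, array weights, a replicate block, and left out each array in turn. The values of list genes without array a of shERK2 at day 7 were added after seeing the data.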

Additional observations from a re-analysis of the deposited data

Results flagged for a closer look

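For 24 values the effect of a treatment differed between times by a direct test of the difference (limma contrast, adjusted over all genes tested). Each is the later effect minus the earlier, in log2, against the control of the same time. Groups of 3 arrays were not examined for single arrays far from the others.

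The 4 inhibitors were set at 24 h against 3 h. With LGX818 the effect changed by -1.30 for MMP1 (adjusted p = 2.47e-13), 0.44 for MMP2 (0.00117), 0.33 for TIMP2 (9.45e-07), 0.10 for TIMP3 (0.0312), 0.29 for FAP (0.00221) and -1.23 for POSTN (1.30e-10). With trametinib it changed by -1.13 for MMP1 (5.75e-12), 0.42 for MMP2 (0.0021), 0.37 for TIMP2 (1.57e-07), 0.11 for TIMP3 (0.0189) and -0.93 for POSTN (3.27e-08). With MEK162 the changes were -1.10 for MMP1 (9.15e-12), 0.44 for MMP2 (0.00108), 0.34 for TIMP2 (4.24e-07), 0.15 for TIMP3 (0.00191) and -1.38 for POSTN (1.39e-11). With the ERK1/2 inhibitor they were -1.53 for MMP1 (1.19e-14), 0.56 for MMP2 (8.67e-05), 0.54 for MMP14 (0.000334), 0.39 for TIMP2 (5.89e-08) and -0.83 for POSTN (2.52e-07). MMP14 in array c of the ERK1/2 inhibitor at 3 h, the array with the high GAPDH 3′ minus 5′ value, read 10.65 against 11.01 and 10.99 in the other arrays of its group.

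With shERK2, day 7 was set against day 3. The effect against NT changed by 0.79 for MMP1 (adjusted p = 1.42e-05), -0.95 for FAP (1.12e-06) and -2.71 for POSTN (5.19e-11), and by 0.76, -0.86 and -2.85 without shERK2 array a of day 7.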

How the results depend on the processing

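Of 151 called values of the 9 genes, 124 kept direction and call under every alternative and 27 lost the call under at least 1; the stricter level filter changed no call, and 72 changes of sign were of values called under neither setting. TIMP2 with shERK2 against parental cells at day 7 turned from 0.08 to -0.028 when arrays were centred on their medians, a scaling that took up the 0.106 log2 difference in array medians. Array weights raised the count of the 9 genes called at 3 h from 0 to 1 with LGX818, 0 to 3 with trametinib, 1 to 3 with MEK162 and 0 to 1 with the ERK1/2 inhibitor, for NT day 7 against day 3 from 3 to 5, and for the day change of the shERK1 and shERK2 effects from 0 to 6 and 3 to 8. With all 54 arrays in 1 fit those day changes counted 3 and 5. Centring gave 1 for the shERK1 day change and 2 rather than 5 for shERK1 against NT at day 3, and fitting the compared groups alone gave 1 for the shERK1 day change. The cause was not tested. Leaving out 1 array gave 0 to 1 for MEK162 at 3 h, 1 to 2 for NT day 7 against day 3, 0 to 3 and 3 to 5 for the shERK1 and shERK2 day changes, 3 to 4 for shERK1 against NT at day 3 and 5 to 8 for trametinib at 24 h. TIMP3 at 24 h lost its calls with LGX818, trametinib and MEK162 (adjusted p = 0.0856, 0.0693 and 0.119) when the compared groups alone were fitted.

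Arrays of the same letter (a, b or c) were not alike on average. The mean correlation of same-letter deviations was 0.0361 in the inhibitor arm (-0.663 to 0.661) and -0.0338 in the shRNA arm (-0.584 to 0.552). Between different letters it was -0.0164 and 0.0176. These means cannot show whether some arrays were handled together. With the letter as a replicate block 4 calls were lost and none gained: FAP for NT and parental day 7 against day 3 (adjusted p = 0.0536 and 0.0578), FAP for shERK1 against NT at day 3 (0.0526) and TIMP3 for NT against parental at day 3 (0.0531).

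Over all genes, fitting the compared groups alone moved counts by over 1.5 times: 295 against 1008 for the ERK1/2 inhibitor at 3 h, 2467 against 538 for NT day 7 against day 3, 2623 against 1168 for NT against parental at day 3, 303 against 51 for the shERK1 day change, 695 against 456 and 3218 against 1751 for shERK1 against NT at days 3 and 7, 5127 against 3225 and 4147 against 6282 for shERK2 against NT, and 3262 against 5867 for shERK2 against parental at day 7. No detection calls were used, so low levels have no stated floor.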

Other observations

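Beyond the genes described so far, further members of the lists moved. In the ADAM list ADAM9, a membrane-anchored sheddase, rose with LGX818, trametinib, MEK162 and the ERK1/2 inhibitor at 24 h by 0.50, 0.59, 0.54 and 0.68 log2, and PREPL, a relative of PREP, by 0.51, 0.56, 0.51 and 0.52. FOSB, an AP-1 partner, fell at 3 h (-1.28, -1.35, -1.19 and -1.31), and FOSL2 was higher by 0.70, 0.52, 0.65 and 0.47. FOSL2 lay at 6.61 in DMSO at 3 h and passed the level filter only through a treated group of 24 h (LGX818, 7.86). SPARCL1, a matricellular protein, fell at 24 h with LGX818, trametinib and MEK162 (-0.72, -0.41 and -0.66) and differed by -0.10 with the ERK1/2 inhibitor (adjusted p = 0.256).

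In the shRNA arm SPP1, which encodes osteopontin, fell with shERK2 against NT at day 3 (-0.24) and day 7 (-0.83, or -0.75 without shERK2 array a). FOSL1 rose with shERK2 by 0.30 and 0.58 (0.41 without array a) and, with shERK1, differed by -0.30 at day 3 (adjusted p = 0.133) and fell by 0.67 at day 7. ETV4 fell with shERK2 (-0.43 and -1.56, or -1.52 without array a). DUSP6, a phosphatase that switches ERK off, fell with shERK2 (-0.40 and -0.62, or -0.59 without array a) and, at day 7, with shERK1 (-0.29).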
